A study of Mus musculus with 18 samples.

Results

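Guanylin (Guca2a), uroguanylin (Guca2b) and guanylate cyclase C (Gucy2c) are the peptide hormones and the receptor of a salt and water signal of the intestinal lining. They were chosen by symbol, with their values and their genotype differences in these libraries already known, so their levels are given here as a description without a test. All 3 were found in each of the 3 tables, among 17759 genes listed for crypts, 17423 for day 1 and 17612 for day 3. The 18 RNA-sequencing libraries came from the duodenum of 3 WT (Mtgr1+/+) mice and 3 Mtgr1-/- mice of 8 to 12 weeks, littermates of both sexes, with the sex of single mice not given. Mtgr1, listed under its symbol Cbfa2t2, encodes a transcriptional corepressor, and the model is a null line that lacks it in all tissues. Each mouse gave freshly isolated crypts and, from the same isolate, enteroids (small intestinal organoids grown from crypts) collected after 24 h (day 1) and 72 h (day 3).

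Guanylin and uroguanylin are secreted into the gut lumen and bind guanylate cyclase C, a receptor of the apical membrane of epithelial cells whose inner domain makes cyclic GMP. Cyclic GMP activates the kinase encoded by Prkg2, and this opens the chloride channel CFTR and holds back the sodium/hydrogen exchanger NHE3 (Slc9a3), so that chloride, bicarbonate and water move into the lumen. The receptor is also the target of the heat-stable toxin of diarrhoeagenic Escherichia coli. In the rodent small intestine, guanylin is known from goblet cells and enterocytes, and uroguanylin from enterocytes and enterochromaffin cells.

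Between 22035316 and 29661084 reads lay on genes in a library, with a median of 26258539. Values are normalized counts, that is, counts divided by 1 factor per library within the table of each time point, unless CPM is named, which is a library's reads scaled to a total of 1000000. Cbfa2t2 was at 523 to 614 in WT crypts and 466 to 697 in crypts labelled Mtgr1-/-, and it was not lower in the enteroids either (710.2 to 788 against 789 to 1160.3 at day 1, and 774 to 883 against 766 to 976 at day 3). The genotype is therefore given as the label of each library. Olfm4, a crypt stem cell gene, was at 17576 or more in the 9 WT libraries and at 512 or less in the 9 libraries labelled Mtgr1-/-. The epithelial genes Epcam and Cdh1 averaged at least 20556 in every group, and Gata4, a transcription factor of the proximal small intestine, at least 5129.5. Fabp6, which marks the ileum, averaged at most 6.63.

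The 2 ligand genes lie beside each other, tail to tail, on mouse chromosome 4 of the GRCm38 build. Guca2a (ENSMUSG00000023247.2) spans chr4:119637704-119639471 on the forward strand and Guca2b (ENSMUSG00000032978.14) chr4:119656607-119658954 on the reverse strand, 17135 bases apart. The peptides come from the ends of longer precursors, of 116 codons for Guca2a and 106 for Guca2b. The last 15 codons of each are shown because they encode the part that meets the receptor, with the cysteine codons in capitals, as read from GENCODE M21 transcripts.
Guca2a, chr4:119639228-119639272, forward strand: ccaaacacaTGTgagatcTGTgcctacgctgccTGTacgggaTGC
Guca2b, chr4:119656795-119656839, reverse strand: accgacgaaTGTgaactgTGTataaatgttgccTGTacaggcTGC
Both hold 4 cysteine codons, at positions 4, 7, 12 and 15, which form the disulfide bonds of the peptides. The stretches were alike at 29 of 45 bases, and 5 of 15 codons were the same. No run of 31 bases, the word length of many read mappers, was shared between the transcripts of the 3 genes. For Gucy2c, 10 of 3956 such runs (0.253%) also occurred in transcripts of other genes, and for Guca2a and Guca2b none did.

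In crypts, guanylin RNA was lower in the libraries labelled Mtgr1-/-, while uroguanylin and the receptor overlapped between the genotypes. Guca2a was at 1319.6, 1327 and 1731 in WT crypts of mice 1, 2 and 3, and at 468, 674 and 983 in crypts labelled Mtgr1-/-. Its highest value under that label lay below the lowest WT value, and the log2 fold change was -1.09 (SE 0.27). Of all 12980 genes tested in crypts, 13.5% had all 3 libraries labelled Mtgr1-/- below all 3 WT libraries, and the median gene had a log2 fold change of 0.0076. Guca2b was at 3875, 3984 and 9060.4 in WT crypts and at 3163, 3277 and 7263 in the others. Mouse 3 of each genotype stood above mice 1 and 2, the genotypes overlapped, and the log2 fold change of -0.30 (SE 0.43) was smaller than its error. Each crypt labelled Mtgr1-/- lay below the WT crypt of the same number, although the numbers were not shown to pair the mice in crypts. Without WT crypt 3, and with the high Mtgr1-/- crypt 3 kept, the log2 fold change turned to 0.10. Gucy2c was at 9509, 9069 and 9857 in WT and at 8656, 8487 and 9706 in crypts labelled Mtgr1-/-, with a log2 fold change of -0.08 (SE 0.10), again with overlap.

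At day 1 all 3 genes were higher in the enteroids labelled Mtgr1-/-, and the ligands moved further than the receptor. Guca2a was at 2847, 2373 and 2881 in WT enteroids and at 5918, 3621 and 9529 in the others. This was a log2 fold change of 1.13 (SE 0.30), with mouse 2 nearest to WT and mouse 3 farthest. Guca2b was at 3927, 2867 and 2872 in WT and at 12681, 8159.9 and 14918 in enteroids labelled Mtgr1-/-. The means differed by 3.70-fold, and the log2 fold change was 1.86 (SE 0.23). Gucy2c was at 8026, 7653 and 7657 in WT and at 12035, 10756 and 11489 in the others, for a log2 difference of 0.55 (SE 0.08). None of the 3 genes overlapped between the genotypes, which at day 1 held in this direction for 34.2% of 12587 genes.

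At day 3 both ligands were still higher in the enteroids labelled Mtgr1-/-. Guca2a was at 732, 792 and 681 in WT and at 2702, 3232 and 2413 in the others, for a log2 difference of 1.91 (SE 0.12). Guca2b was at 1768, 1598 and 1748 in WT and at 5766, 9161 and 5686 in enteroids labelled Mtgr1-/-, a log2 fold change of 1.97 (SE 0.17), a 4.03-fold difference of the means. Neither ligand overlapped between the genotypes, as for 34.6% of 12782 genes in this direction. Gucy2c was at 7226, 7196 and 7954 in WT and at 7794, 10517 and 9113 in the others. Mouse 1 labelled Mtgr1-/- lay below WT mouse 3 for the receptor, and the log2 fold change was 0.28 (SE 0.12). Guca2a was thus below WT in crypts and above it at both enteroid times without overlap, a pattern shown by 165 of the 12145 genes tested at all 3 times (1.36%).

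**Figure D1:**
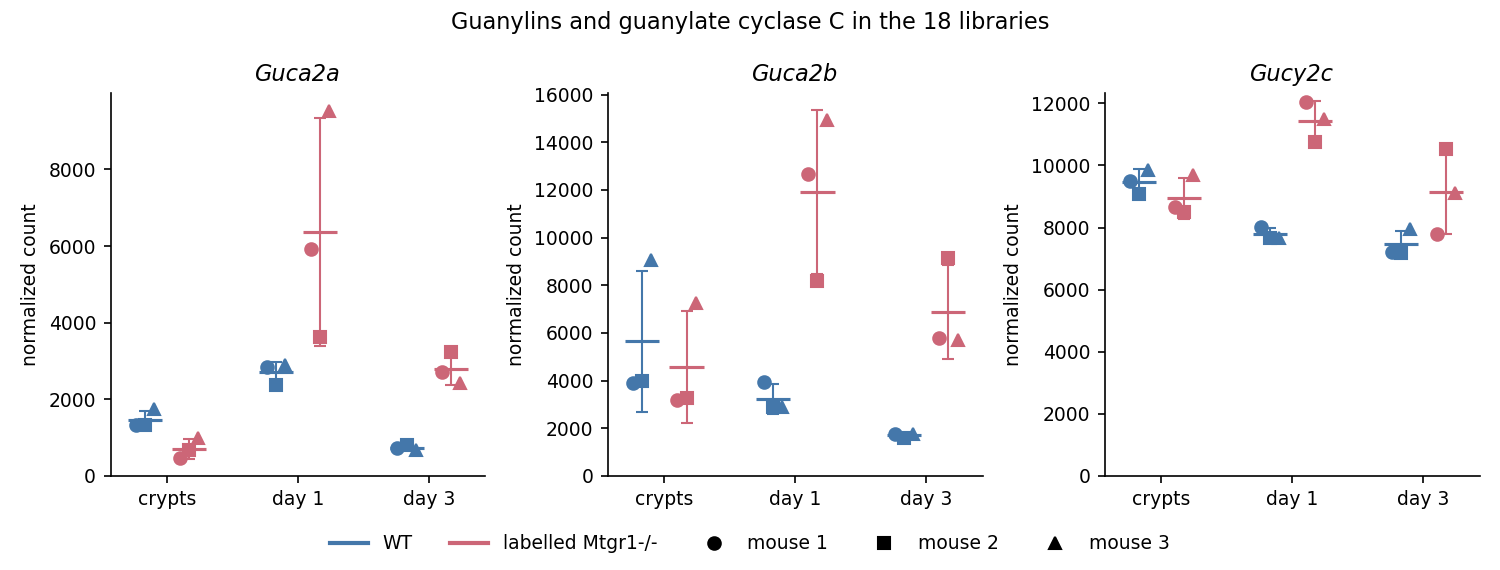
Normalized counts of Guca2a, Guca2b and Gucy2c (y axes, linear from 0) in WT libraries and libraries labelled Mtgr1-/- at each time, with a point per mouse, a bar at the mean of 3 and error bars of 1 SD. Guca2a sits lower in crypts labelled Mtgr1-/- (468 to 983 against 1319.6 to 1731 in WT), and both ligands sit above WT in the enteroids.

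The scale decides how large the receptor's difference is. The tables were scaled so that the median gene differed little between the genotypes (log2 fold changes of -0.0080 at day 1 and 0.0026 at day 3). In CPM, the median gene was lower under the label Mtgr1-/- by 0.33 at day 1 and 0.20 at day 3 on the log2 scale. On that scale the log2 fold changes at day 1 were 0.81 for Guca2a, 1.54 for Guca2b and 0.23 for Gucy2c. At day 3 they were 1.71, 1.77 and 0.083 in the same order, and with quantile normalization Gucy2c was at -0.011 at day 3. The ligands kept their direction under each scaling, whereas the receptor's difference at day 3 was near 0 with quantile normalization.

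CPM values allow the time points to be set side by side, as values of tables that were normalized apart, without a test. In WT mice, Guca2a went from 52.1 to 67.1 CPM in crypts to 103 to 122 at day 1, and stood at 28.1 to 33.0 at day 3. The value at day 1 was 1.82 to 2.17 times that of the same mouse's crypts. In mice labelled Mtgr1-/-, it went from 19.5 to 36.4 in crypts to 133 to 306 at day 1, which was 4.71 to 9.76 times the crypts of the same mouse, and it was at 88.8 to 109.6 at day 3. All 3 of these mice were therefore above their own crypts at day 3 (2.44 to 5.33 times), and all 3 WT mice were below theirs (0.419 to 0.632 times).

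Guca2b took another course in WT. It stood at 155 to 351 CPM in WT crypts, at 121 to 158 at day 1 and at 66.5 to 74.8 at day 3. Only WT mouse 1 was above its crypts at day 1, by 1.02 times. Under the label Mtgr1-/-, it was at 132 to 269 in crypts, at 301 to 479 at day 1 and at 209 to 311 at day 3. Mouse 3 labelled Mtgr1-/- ended below its crypts, at 0.779 times, and mice 1 and 2 above theirs. Gucy2c lay between 299.1 and 396 CPM in all 18 libraries, a narrower range than for either ligand, and each mouse's enteroids were at 0.806 to 1.11 times its crypts.

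**Figure D2:**
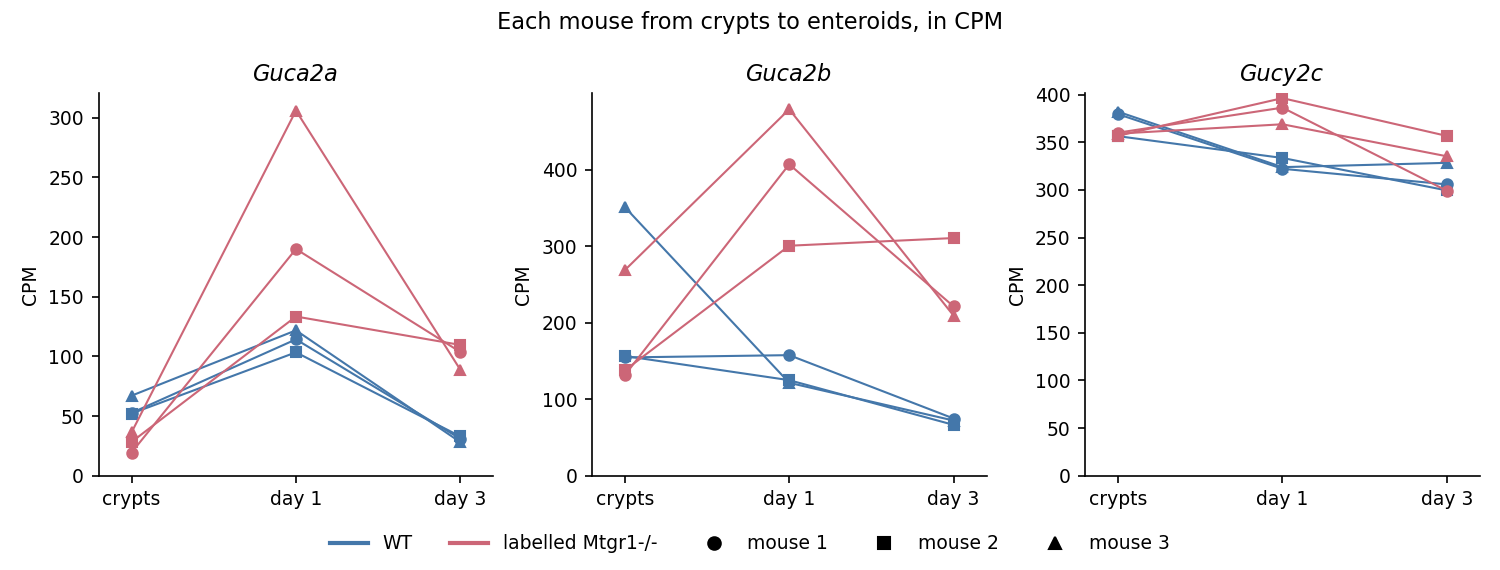
CPM (y axes, linear from 0) of the 3 genes in crypts, day 1 and day 3 enteroids, with a line per mouse. The day 1 peak of Guca2a is highest in mouse 3 labelled Mtgr1-/- (306), and the lines of Gucy2c stay between 299.1 and 396.

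Per length of transcript, uroguanylin was the most abundant of the 3 in crypts. In CPM per kilobase, WT crypts held 222, 225 and 504 for Guca2b, 87.8 to 113 for Guca2a and 90.0 to 96.5 for Gucy2c, so the last 2 did not differ beyond their spread. Among the 12980 genes tested, WT crypts ranked Guca2b 194th, Guca2a 655th and Gucy2c 673rd on this scale. At day 1 the ligands of WT enteroids reached like levels (174 to 226 for Guca2b and 174 to 205 for Guca2a), while in enteroids labelled Mtgr1-/- Guca2b was the higher in each library, by 1.33 to 1.92 times. At day 3 Guca2b was again the higher in each library, by 1.72 to 2.19 times in WT and 1.82 to 2.42 times in the others. In crypts this ratio was 2.50, 2.56 and 4.46 in WT and 5.76, 4.14 and 6.30 under the label Mtgr1-/-. The summed ligands per receptor transcript, on the same scale, were 1.82 to 2.07 in WT and 5.31 to 7.0 in the others at day 3, and 4.19 to 5.14 against 6.55 to 12.9 at day 1. In crypts they were 3.24 to 6.39 in WT and 2.44 to 4.93 in the others, with overlap.

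Markers of the cells known to make the ligands were read beside them. The 13 goblet cell markers tested were all lower at each of the 3 times (adjusted p below 0.05 in limma, met by 4.73%, 58.9% and 59.0% of all genes tested in either direction), and their summed level fell from 6084 to 6944 CPM in WT crypts to 227 to 307 under the label Mtgr1-/-. The sums were 2825 to 3169 against 79.3 to 174 at day 1, and 1321 to 1371 against 86.5 to 174 at day 3. Tff3, a trefoil peptide of goblet cells, fell by 5.05 on the log2 scale in crypts (SE 0.25, adjusted p = 0.000186), the largest of its 3 differences. Guca2a stood at 0.486 times its WT mean in crypts, and at 2.35 and 3.78 times at days 1 and 3, where the goblet sums were lower as well. Of the 14 markers of the list, 1 was not analysed here.

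Enterochromaffin markers fell with the goblet markers. Of 8 tested, 7 were lower at each time, and 1 was higher at days 1 and 3. Of all genes, 4.73% passed in crypts, 58.9% at day 1 and 59.0% at day 3, in either direction. Tph1, the enzyme that starts serotonin synthesis in these cells, averaged 392 ± 167 in WT crypts and 25.3 ± 8.72 in the others (SD, n = 3). Chga, a granule protein, fell by 5.41 on the log2 scale at day 1 (SE 0.38, adjusted p = 8.66e-05). Guca2b was 3.70 and 4.03 times its WT mean at days 1 and 3, where the summed enterochromaffin markers were at 22.1 to 53.9 CPM under the label Mtgr1-/- and at 411 to 582 in WT.

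Enterocyte markers were higher with the ligands in enteroids, and in crypts, where Guca2a was lower, they overlapped between the genotypes in sum. In crypts 0 of 18 passed the threshold in limma or in edgeR, with 7 at an unadjusted p below 0.05 and 6 by DESeq2 (4 higher and 2 lower). All 18 were higher in the enteroids labelled Mtgr1-/- at day 1 (median log2 fold change 2.36) and day 3 (2.11), where 58.9% and 59.0% of all genes passed in either direction. Alpi, the brush border alkaline phosphatase, rose by 1.70 at day 1 (SE 0.26, adjusted p = 0.00117), and Fabp1, a fatty acid binding protein, by 1.21 (SE 0.20, adjusted p = 0.00176). Their summed level was 7121 to 8526 CPM in WT and 18062 to 27190 in the others at day 1, and 4916 to 5450.3 against 14314 to 21619 at day 3. The sums in crypts were 16484 to 21137 and 16463 to 27114.

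Set against these markers, uroguanylin lay within a narrow range in the enteroids of both genotypes. There were 1.65 to 1.85 reads of Guca2b per 100 reads of the 18 enterocyte markers in WT at day 1 and 1.55 to 1.76 in the others, and 1.32 to 1.40 against 1.44 to 1.53 at day 3, so that the genotypes overlapped at day 1 and not at day 3. In crypts it was 0.938, 0.889 and 1.66 in WT and 0.610, 0.837 and 0.991 under the label Mtgr1-/-. Guca2a came to 0.296 to 0.319 per 100 enterocyte reads in WT crypts and 0.0902 to 0.172 in the others, and to 1.34 to 1.65 against 0.722 to 1.13 at day 1. At day 3 it was 0.516 to 0.670 and 0.507 to 0.718, with overlap. Gucy2c was at 3.78 to 4.68 in WT and 1.36 to 2.19 in the others at day 1, and at 5.72 to 6.09 against 1.65 to 2.34 at day 3, so that the receptor differed less than the enterocyte markers. Beside 6 general epithelial markers, Gucy2c was at 3.17 to 4.01 reads per 100 in WT and 3.14 to 3.97 in the others at day 1. It was lower under the label Mtgr1-/- on this scale in crypts (3.54 to 3.89 against 4.17 to 5.32) and at day 3 (3.06 to 3.90 against 4.77 to 5.22). The sums of these 6 markers were themselves higher there under that label. They were 9264 to 10068 CPM against 7181 to 8548 in WT crypts, and 9135 to 9786 against 5860 to 6381 at day 3. In CPM, Gucy2c itself overlapped at both times, at 356 to 382 in WT crypts and 357 to 360 in the others. At day 3 it was at 299 to 328 and 299 to 357 in the same order. Fewer cells of a type and less RNA per cell cannot be told apart in bulk RNA, and the part of cell makeup in the values of the 3 genes was not tested.

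**Figure D3:**
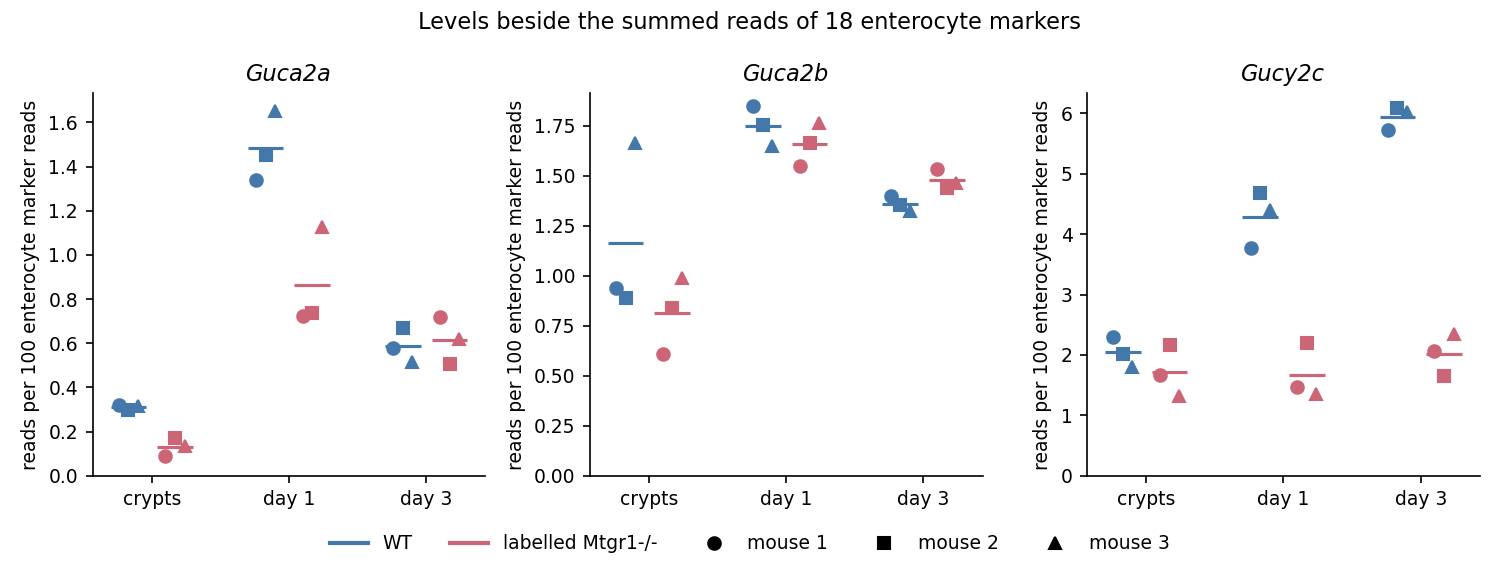
Reads of each gene per 100 reads of 18 enterocyte markers in the same library (y axes, linear from 0), with a point per mouse and a bar at the mean of 3. Guca2b spans 1.32 to 1.85 over the 12 enteroid libraries, while Gucy2c is lower in the 6 enteroid libraries labelled Mtgr1-/- (1.36 to 2.34) than in the 6 WT ones (3.78 to 6.09).

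**Figure D4:**
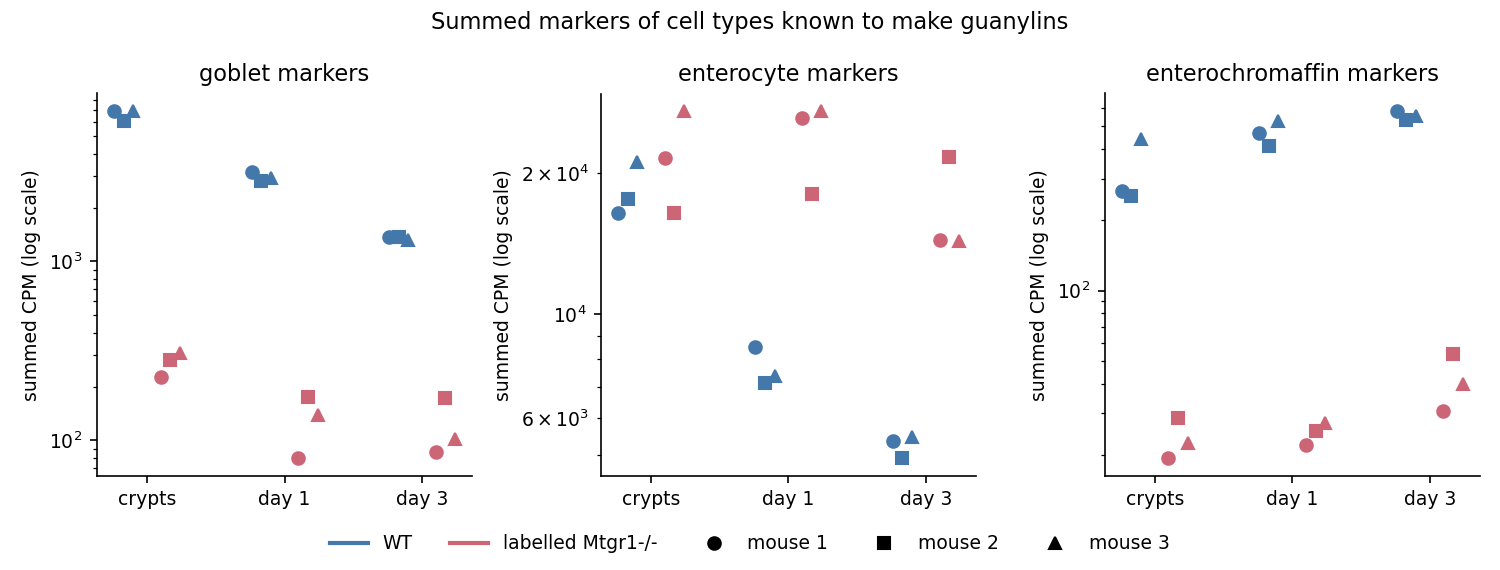
Summed CPM (y axes, log scale) of 13 goblet, 18 enterocyte and 8 enterochromaffin markers in each library, with a point per mouse. Goblet and enterochromaffin sums are lower in every library labelled Mtgr1-/- at all 3 times, and enterocyte sums are higher in the enteroids (at least 14314 against at most 8526).

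Markers of other cells of the isolates were also read. Immune markers summed to 1499 to 1541 CPM in WT crypts and 141 to 273 in the others, although 1 of 7 passed, being lower. Of all genes, 4.73% passed in crypts. By day 3 they summed to 33.7 to 72.2 and 4.67 to 88.2, with overlap, and 0 of 3 tested passed in limma (0 at an unadjusted p below 0.05, 1 by edgeR and 0 by DESeq2). WT crypt 3, with the highest Guca2b of the crypts, also had the highest stromal sum (27.8 against 2.55 to 6.22 in the other 5 crypt libraries) and the highest enterochromaffin sum (443 against 253 and 264 in WT crypts 2 and 1). Mouse 3 of each genotype had the highest enterocyte sum of its crypts. These were 21137 against 16484 and 17608 in WT, and 27114 against 21576 and 16463 under the label Mtgr1-/-. The enterochromaffin sum of the Mtgr1-/- crypt 3 (22.5) lay between those of crypts 1 and 2 (19.3 and 28.7). Paneth cell markers summed to 5012 to 6722 in WT crypts and to 75.6, 1859 and 50.9 in the others. In crypts this was without any of 7 past the threshold in limma or edgeR (7 at an unadjusted p below 0.05). All 7 were lower at days 1 and 3, where 58.9% and 59.0% of all genes passed in either direction. The part of these cells in the 3 genes was not tested.

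Sequence before the ligand genes is shown because both neighbours were higher in the enteroids labelled Mtgr1-/-. RefSeq starts were matched for Guca2a and Guca2b, and not for Gucy2c, in a table of 32851 mouse promoters of GRCm38.p6. The 220 bases from -250 to -31 before each start follow, with matches to 6 short motifs in capitals.
Guca2a, chr4:119637482-119637701, forward strand: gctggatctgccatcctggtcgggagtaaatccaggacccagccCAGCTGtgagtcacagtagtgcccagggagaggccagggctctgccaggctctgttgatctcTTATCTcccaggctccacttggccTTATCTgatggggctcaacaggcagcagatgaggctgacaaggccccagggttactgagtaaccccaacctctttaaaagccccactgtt
Guca2b, chr4:119658976-119659195, reverse strand: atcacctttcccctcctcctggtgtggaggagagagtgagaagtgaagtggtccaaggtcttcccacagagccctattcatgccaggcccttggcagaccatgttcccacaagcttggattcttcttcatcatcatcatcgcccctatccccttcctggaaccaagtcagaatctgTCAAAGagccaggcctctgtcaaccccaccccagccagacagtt
Read on both strands, the motifs were AGATAA for factors of the GATA family, TTTATG for the CDX factors, CAAAGT for the HNF4 factors, TCAAAG for factors of the TCF/LEF family, and 2 E boxes, of which the first was spelled CAGCTG and the other one CAGGTG in this search. The letters TCAAAG share 5 bases with the HNF4 motif. In its window, Guca2a held 2 matches to AGATAA, both on the reverse strand as TTATCT and starting at -144 and -120, in a window where 9.04% of all promoters hold at least 1. It also held CAGCTG at -206, as 11.4% of promoters do. Guca2b held TCAAAG at -74, as 12.6% do. No motif was found in both windows, and these letters are a description of the sequence.

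Genes near the ligands and the receptor were read to see whether the neighbourhood moved as a whole. Within 300 kb of the ligands, 4 genes were tested in crypts, with 0 past the threshold in limma, edgeR or DESeq2 and 2 at an unadjusted p below 0.05. Of 5 tested at day 1, 3 were higher (60.0%, beside 58.9% of all genes in either direction), and of 6 at day 3, 3 were higher (50%, beside 59.0%). Foxj3, a forkhead factor whose gene ends 8585 bases before Guca2a, was at 1354, 1193 and 1392 in WT and at 2019.8, 1387 and 1925 in enteroids labelled Mtgr1-/- at day 1, for a log2 difference of 0.42 (SE 0.15, adjusted p = 0.0419, past the threshold in 8 of 16 alternatives, range 0.00141 to 0.470). At day 3 its log2 fold change was 0.24 (SE 0.091, adjusted p = 0.0499, past the threshold in 2 of 16 alternatives, range 0.0355 to 0.701). Ppcs, an enzyme of coenzyme A synthesis, rose by 0.78 at day 1 (SE 0.085, adjusted p = 0.000353) and by 0.73 at day 3. Rimkla, which makes N-acetylaspartylglutamate, was at 1.83 to 4.19 in WT and 36.4 to 60.6 in the others at day 1 (adjusted p = 0.000562). Hivep3, Frg2f1 and Ccdc30 did not pass at any time they were tested, although Hivep3, at 14.6 to 31.8 in WT and 4.74 to 12.8 in the others at day 1, passed with the replicate block (adjusted p = 0.0334, against 0.0732 without).

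Around Gucy2c (ENSMUSG00000042638.14, chr6:136697284-136781765, reverse strand), 7 genes were tested in crypts and 0 passed in limma, edgeR or DESeq2, or at an unadjusted p below 0.05 in limma. At day 1, 1 of 7 was higher and 1 lower (28.6%, beside 58.9% of all genes), and at day 3, 1 of 6 was higher and 1 lower (33.3%, beside 59.0%). Plbd1, a phospholipase-like protein, rose by 0.61 (SE 0.20, adjusted p = 0.0337, past the threshold in 9 of 16 alternatives, range 0.000662 to 0.190), and Wbp11, a splicing factor, fell by 0.35 (SE 0.074, adjusted p = 0.00510). At day 3, Plbd1 was again higher (log2 fold change 0.82, SE 0.14, adjusted p = 0.00186) and Atf7ip, a chromatin cofactor, lower by a small step (log2 fold change -0.24, SE 0.089, adjusted p = 0.0467, past the threshold in 8 of 16 alternatives, range 0.00836 to 0.160). H2afj, BC049715, H4f16 and Arhgdib did not pass where tested, except H2afj at day 1 with the replicate block (log2 fold change -0.29, adjusted p = 0.0370, against 0.164 without). Genes of these windows that did not reach a mean of 10 at a time were not tested then.

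Downstream of the receptor, a list of 42 genes was followed, of which 31 had enough counts for a test at the crypt stage, 31 at day 1 and 32 at day 3. In crypts 1 was higher and 0 lower (3.23% of those tested, beside 4.73% of all genes). At day 1, 16 were higher and 7 lower in the enteroids labelled Mtgr1-/- (74.2%, beside 58.9% of all genes), and at day 3, 14 were higher and 5 lower (59.4%, beside 59.0%). Their median log2 fold changes were 0.066, 0.44 and 0.44, beside 0.0076, -0.0080 and 0.0026 for all genes. In CPM, the split at day 1 was 12 higher and 9 lower, and among all genes it went from 3776 higher and 3637 lower to 2200 and 5614.

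Of the cyclic GMP effectors, the kinase gene and an export pump rose in enteroids. Prkg2, the kinase that cyclic GMP activates at the apical membrane, was at 2532, 2497 and 2649 in WT crypts and at 3345, 2570.1 and 2987 in the others, with an adjusted p of 0.383. At day 1 it was at 1877, 1579 and 1474 in WT and at 4065, 3309 and 3739 in enteroids labelled Mtgr1-/-, a rise of 1.17 (SE 0.12, adjusted p = 0.000271), and at day 3 it rose by 0.58 (SE 0.15, adjusted p = 0.0122). Abcc5, a pump that exports cyclic nucleotides, rose by 1.25 at day 1 (SE 0.23, adjusted p = 0.00250) and 1.96 at day 3 (SE 0.19, adjusted p = 0.000109). Pde5a, the main phosphodiesterase specific for cyclic GMP, did not pass at any time, with log2 fold changes of 0.19 in crypts, 0.13 at day 1 and -0.26 at day 3. At day 3 its adjusted p in limma was 0.0659, past the threshold in 3 of 16 alternatives (range 0.00358 to 0.215).

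Other phosphodiesterases went either way. Pde3b, which cyclic GMP inhibits, was at 214, 294 and 404 in WT and at 100.3, 123 and 109 in the others at day 1, a fall of 1.40 on the log2 scale (SE 0.24, adjusted p = 0.00180), and it fell by 1.20 at day 3. Pde9a, named after its values were seen, rose by 1.60 at day 1 (SE 0.15, adjusted p = 0.000196). Pde2a fell at day 1 (adjusted p = 0.00823), but it is listed under 2 overlapping gene IDs between which reads could be split, so its value is uncertain. Prkg1, the kinase of smooth muscle, was at 2.28 or less wherever it was listed.

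Genes of ion transport went in both directions. Cftr, the chloride and bicarbonate channel, was the list gene that passed in crypts, at 6014, 5464 and 5735 in WT and 9295, 8816 and 8182 under the label Mtgr1-/-. This was a rise of 0.61 (SE 0.091, adjusted p = 0.0147, past the threshold in 13 of 16 alternatives, range 5.42e-08 to 0.0820). Without any 1 of WT crypt 1, WT crypt 2 or Mtgr1-/- crypt 1, it no longer passed. In enteroids Cftr was at 5228 to 5748 in WT and 5305 to 5806 in the others at day 1 (log2 fold change -0.00079, adjusted p = 0.994). Over 16 alternatives its log2 fold change at day 1 ran from -0.32 to 0.034, past the threshold in 2 (lowest adjusted p 0.00670). The change of its genotype difference from crypts to day 1 was -0.61 (SE 0.12, adjusted p = 0.00211).

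Several exchangers rose in enteroids. Slc9a3 (NHE3), which cyclic GMP signalling inhibits, was at 5205, 4254 and 3372 in WT at day 1 and at 13442, 6951 and 15995 in the others, a rise of 1.44 (SE 0.30, adjusted p = 0.00467), and it rose by 1.03 at day 3. Slc26a6, a chloride and bicarbonate exchanger, rose by 1.61 at day 1 (SE 0.16, adjusted p = 0.000238) and 1.55 at day 3. Partners of Cftr in secretion fell. Slc12a2, the cotransporter that loads chloride into the cell from the blood side and that also stands on the stem marker list, was at 24293, 20132 and 19761 in WT and at 5332, 4026 and 3590.1 in the others at day 1. It fell by 2.32 (SE 0.16, adjusted p = 7.48e-05), and by 1.83 at day 3. All 8 stem markers, this gene among them, were lower at both times, with sums of 2040.2 to 3250.3 CPM in WT and 168 to 229 in the others at day 1, and 4784 to 5869.6 against 249 to 563 at day 3. The part of stem cells in the fall of Slc12a2 was not tested. Kcne3, the partner subunit of the basolateral potassium channel, fell by 2.00 at day 1 (SE 0.18, adjusted p = 0.000187) and 1.40 at day 3. Over the 10 transport genes, 5 were higher and 3 lower at day 1, and 6 higher and 3 lower at day 3 (80.0% and 90.0%, beside 58.9% and 59.0% of all genes).

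Scaffolds of the apical membrane, which tie the exchanger, the channel and the kinase together, passed at day 1 in 5 of 5 cases, with 4 higher and 1 lower, and at day 3 in 2 of 5, both higher (100% and 40.0%, beside 58.9% and 59.0% of all genes). Pdzk1 rose by 1.75 (SE 0.28, adjusted p = 0.00156) at day 1, and at day 3 its log2 fold change of 1.08 did not pass (adjusted p = 0.106, past the threshold in 2 of 16 alternatives). Its crypt values were lower under the label Mtgr1-/- (1513, 1077 and 2153 against 2536, 2370.0 and 2626) without passing (adjusted p = 0.152). Slc9a3r1 (NHERF1) rose by 1.65 at day 1 (SE 0.17, adjusted p = 0.000289) and 1.40 at day 3. Pdzd3, a PDZ protein that binds guanylate cyclase C, was at 326, 311 and 289 in WT and at 550.4, 411 and 479 in the others at day 1, a rise of 0.63 (SE 0.14, adjusted p = 0.00561). At day 3 its log2 fold change of 0.40 did not pass (adjusted p = 0.104). Other guanylate cyclases, their receptors and their activating proteins were at 31.6 normalized counts or less wherever listed.

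Among transcription factors of gut epithelium, the smaller differences depended on the scale. Cdx2 rose by 0.39 at day 1 (SE 0.13, adjusted p = 0.0303, past the threshold in 9 of 16 alternatives, range 0.00770 to 0.729) and did not pass in crypts or at day 3. Hnf4a was at 23792 to 24254 in WT and 27372 to 28938 in the others at day 1, for a log2 difference of 0.23 (adjusted p = 0.0717, or 0.0364 with the replicate block), which ranged from -0.22 to 0.25 over the alternatives. Hnf4g, named after its values were seen, rose by 1.14 at day 1 (SE 0.11, adjusted p = 0.000217) and by 0.98 at day 3. Over the 6 factors of the list, 3 were higher and 1 lower at day 1, and 1 higher and 1 lower at day 3. These were 66.7% and 33.3%, beside 58.9% and 59.0% of all genes.

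**Figure D5:**
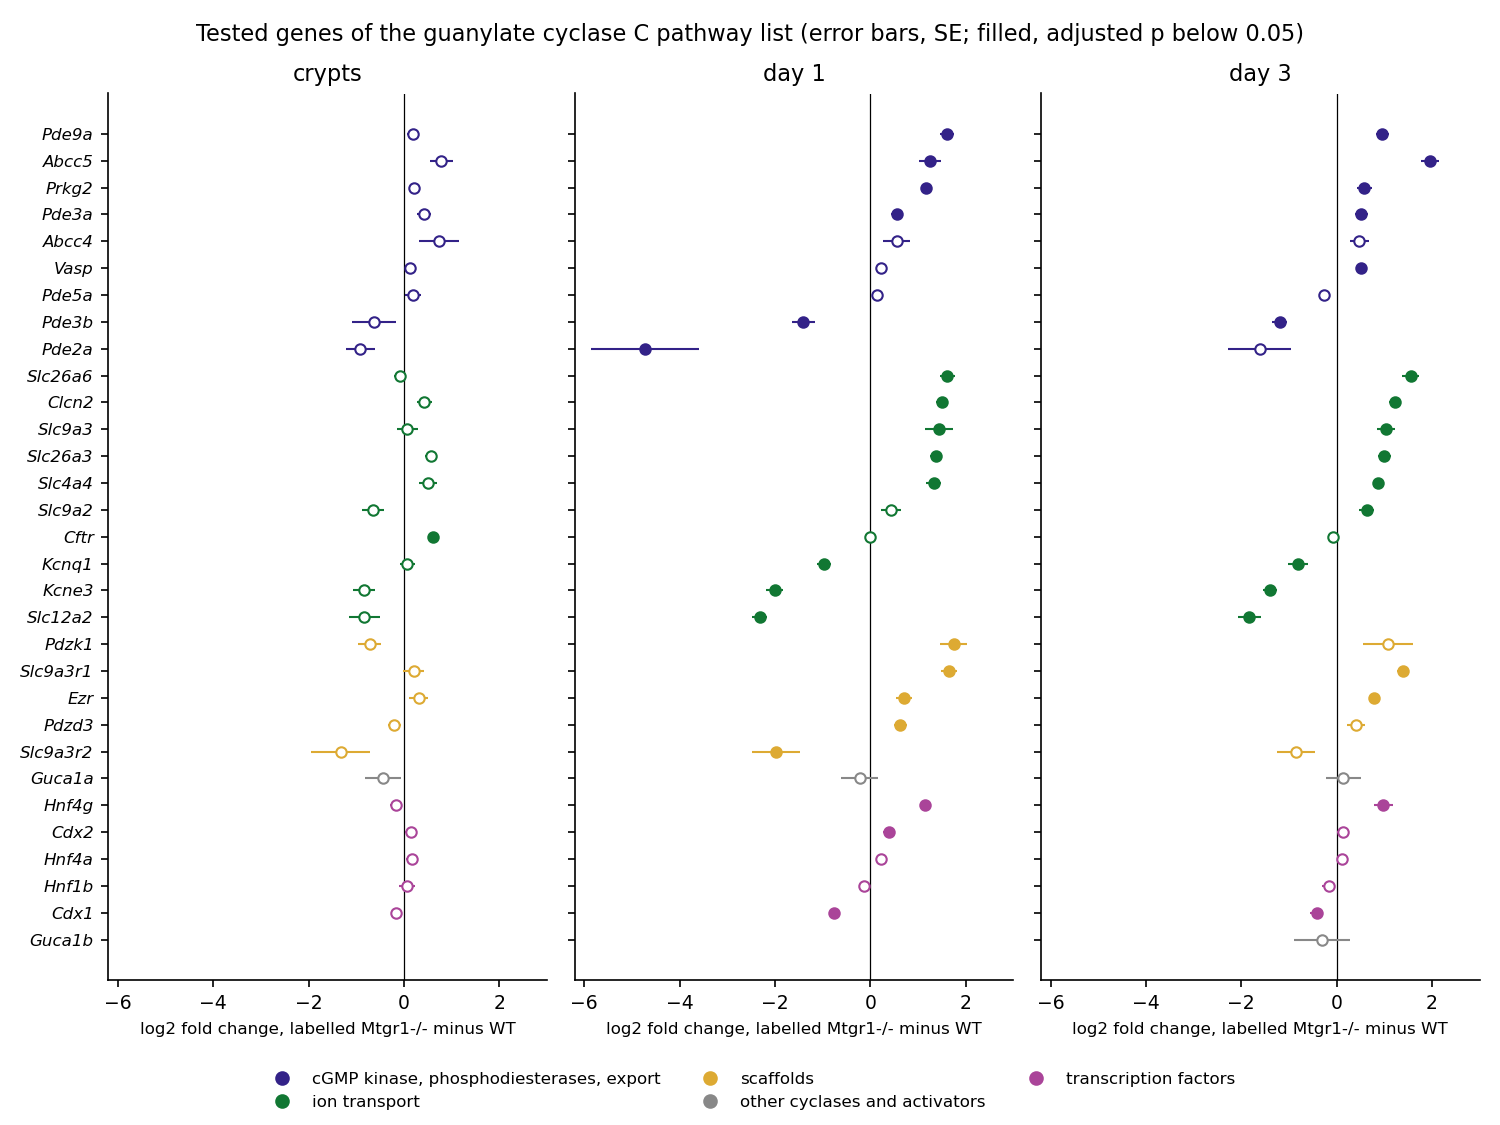
Log2 fold changes (x axes, labelled Mtgr1-/- minus WT, with SE) of tested genes of the guanylate cyclase C pathway list (all but 1) in crypts, day 1 and day 3, coloured by role and filled where the adjusted p in limma was below 0.05. In crypts the filled point is Cftr, and in enteroids exchangers and 4 of 5 scaffolds lie to the right of 0 while Slc12a2 and Kcne3 lie to the left.

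Between crypts and day 1, the genotype difference changed for 18 of 31 list genes, 12 toward higher and 6 toward lower values under the label Mtgr1-/-, where 41.4% of 12145 genes changed. Between day 1 and day 3 it changed for 0 of 31 in limma at an adjusted p below 0.05, as for 0.0329% of all genes. Without the Mtgr1-/- mouse 2 it changed for 6. With the gene not reported here left out, 5 of 30 changed at an unadjusted p below 0.05 in limma. Prkg2 changed by 0.97 toward higher (SE 0.20, adjusted p = 0.00282) and Slc9a3 by 1.37 (SE 0.40, adjusted p = 0.0137) from crypts to day 1.

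Genes with the most similar profiles were read over the 18 libraries, after centring each gene on the mean of each table, among 10589 genes with a mean of at least 50 in every table. The libraries share genotype and cell makeup, so the correlations are a description. For Guca2b the nearest were Arhgap27 (r = 0.973), Gmip (0.971), Apoa4 (0.969), Apoa1 (0.964) and Adamtsl5 (0.962), of which Apoa4 and Apoa1 are apolipoproteins that also stand on the enterocyte list. For Guca2a they were Gcnt2 (0.948), Dap (0.939), Tap2 (0.937), Fam234a (0.937) and Tprgl (0.932). For Gucy2c they were Mia3 (0.974), Hadh (0.964), Npc1l1 (0.961), Arfgap3 (0.959) and BC005537 (0.959), of which Npc1l1 takes up cholesterol at the brush border. Guca2a and Guca2b were at r = 0.893 with each other, Guca2b and Gucy2c at 0.888, and Guca2a and Gucy2c at 0.739. Centred on the mean of each genotype at each time, r was 0.762, 0.577 and 0.191 for the same pairs over the 9 WT libraries and 0.862, 0.739 and 0.458 over the 9 labelled Mtgr1-/-, lower for each pair than over all 18. No neighbour of the ligands or the receptor within 300 kb was among these genes.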

How the data were processed

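The 18 libraries (3 mice by 2 genotypes by 3 times) were grouped by the labels, and libraries of 1 genotype with the same number were taken to be 1 mouse. The authors made stranded mRNA libraries, trimmed reads with fastp 0.20.0, quantified them with Salmon 1.3.0 on mouse GENCODE transcripts and summed them per gene. The deposited signal values are gene counts divided by 1 DESeq2 1.26.0 factor per library, within each table. The deposited columns of the authors' own comparison (log2 fold changes, statistics, p-values) were not used. Gene IDs were matched to GENCODE M21 (GRCm38).

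The members, gene lists and tests were chosen with earlier results of these data known. Each table was fitted with limma 3.58.1 (R 4.3.3, eBayes with trend) on log2(normalized count + 1), which understates changes of low genes, for the genes whose table mean reached 10, two-sided, with Benjamini-Hochberg adjustment over all of them and a threshold of 0.05. p-values measure the spread between 3 mice a group. Changes between times were fitted on the 18 libraries together, the mouse entering as random (correlation within a mouse -0.0048). Steps were tested on simulated data, where 195 of 200 genes changed by 2-fold were recovered in crypts, 196 at day 1, 197 at day 3, and 131 of 200 in the test of a change from crypts to day 1. Every simulated gene had the same spread between libraries, without a mouse effect. The recovery of genes that vary more between mice was not measured, so a count of 0 in crypts does not show that nothing changed. All values of each library were whole multiples of 1 step (tolerance 0.01), which gave the reads for edgeR 4.0.16 and DESeq2 1.42.0. CPM are reads scaled to a library total of 1000000.

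Named genes are the 3 members, 8 pathway genes fixed by name (1 of which, though counted in its list, is not reported here), the 3 largest rises and falls of list genes past the threshold at each time, the 5 most similar genes of each member, tested neighbours within 300 kb, and the first 2 of each marker list that bears on a result. Same-numbered WT and Mtgr1-/- mice deviated together at day 1 (correlations across genes 0.116, 0.231 and 0.216). Each library there correlated best with its own number, the rule used for a sign of pairing. In crypts (0.0764 to 0.346) and at day 3 (-0.0156 to -0.00226) they did not meet this rule. The main fits held no term for the mouse number, at day 1 as well. Such a term (the replicate block) was an alternative, with which 8027 genes passed at day 1, against 7413 without.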

Additional observations from a re-analysis of the deposited data

Results flagged for a closer look

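The genotype difference changed between crypts and day 1 for 12 of the pathway genes named above, by the limma test of the change itself, which 41.4% of all genes passed. Of the genes fixed by name, Slc9a3 (1.37), Prkg2 (0.97) and Pdzd3 (0.83, SE 0.24, adjusted p = 0.0138) went toward higher values under the label Mtgr1-/-, and Cftr (-0.61) toward lower. The other 8 were named for the size of their differences in these libraries, so their changes are given as a description. Toward higher went Pdzk1 (2.47), Slc26a6 (1.70), Slc9a3r1 (1.45), Pde9a (1.42) and Hnf4g (1.31), and toward lower Pde2a (-3.81, uncertain as said), Slc12a2 (-1.49) and Kcne3 (-1.17).

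Of the neighbours of the ligands, Foxj3 changed by 0.66 (SE 0.17, adjusted p = 0.00652), Ppcs by 0.67 (SE 0.14, adjusted p = 0.00273) and Frg2f1 by 1.15 (SE 0.36, adjusted p = 0.0204) toward higher by the same limma test, and near Gucy2c Wbp11 changed by -0.43 (SE 0.12, adjusted p = 0.00991). Frg2f1 was not higher in the enteroids labelled Mtgr1-/- (log2 fold changes -0.086 at day 1 and -0.39 at day 3). Its crypt values were 13.2 to 20.3 under that label and 33.5 to 47.2 in WT. This was a log2 fold change of -1.23 that did not pass in limma (adjusted p = 0.0984). Of the marker genes, Alpi changed by 2.11 (SE 0.46, adjusted p = 0.00343), Chga by -2.28 (SE 0.78, adjusted p = 0.0289) and Olfm4 by -4.82 (SE 0.57, adjusted p = 0.000262).

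Guca2a was lower in all 3 crypt libraries labelled Mtgr1-/- than in all WT crypts and higher in all 3 at day 1 and day 3. Its log2 fold changes differed by 2.23 between day 1 and crypts and by 3.01 between day 3 and crypts. This difference was not tested, since Guca2a was chosen with its values known.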

How the results depend on the processing

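The log2 fold changes of Guca2a and Guca2b kept their direction under 13 alternatives at each time, except Guca2b in crypts, which ran from -0.69 to 0.10 when libraries were left out in turn and turned to 0.10 without WT crypt mouse 3. That fit kept the Mtgr1-/- crypt mouse 3, the highest under its label. Gucy2c depended on the scale: at day 1 it went from 0.55 to 0.20 with quantile normalization and 0.23 in CPM, and at day 3 from 0.28 to -0.011 and 0.083. Guca2a at day 3 was 1.71 in CPM. CPM was an alternative chosen after seeing the data. In crypts, 614 genes passed, and 1426 did by DESeq2, and 176 to 608 when libraries were left out, with 176 without WT mouse 1, 211 without WT mouse 2, 310 without the Mtgr1-/- mouse 1 and 379 without mouse 3. The cause was not tested. Of the pathway list, 1 gene passed in crypts, 2 with quantile normalization, 2 in CPM, 4 by DESeq2 and 0 to 2 with libraries left out. The change from day 1 to day 3 went from 0 genes to 0 to 6, with 6 without the Mtgr1-/- mouse 2. With the replicate block, the pathway list gave 2 genes in crypts (Cftr and Kcne3, adjusted p = 0.0423 for the latter), 27 at day 1 and 20 at day 3, and 17 changes from crypts to day 1. In crypts and at day 3, not every library correlated best with its own number. Day 3 in CPM gave 2748 genes higher and 5089 lower, against 3826 and 3719. Libraries held 22035316 to 29661084 reads, and 3 mice a group limit what can be called.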
